A study of Solanum pimpinellifolium with 60 samples.

Results

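The effect of the fas allele on gene expression was examined in tomato floral buds at 6 dpi (days post floral initiation), when the carpel primordia are forming. The comparison rests on all 12 libraries of this stage, out of 60 in the series: 6 libraries with the allele (3 of the fas NIL and 3 of the lc/fas double NIL) and 6 without it (3 of the wild type and 3 of the lc NIL), with the presence of the lc allele as a covariate. All lines have the background of Solanum pimpinellifolium LA1589, a wild relative of tomato with small fruits. The near-isogenic lines (NILs) carry alleles of cultivated tomato, brought into LA1589 by repeated backcrossing, so each line also keeps genes linked to its locus. The wild type (WT) was taken from the same backcross population and has the LA1589 allele at both loci. In fas an inversion has a breakpoint upstream of SlCLV3, and in lc the mutation consists of SNPs downstream of SlWUS. Buds were dissected from inflorescences pooled from many plants, so each library is a pool of whole buds, and the p-values below measure the spread between 3 such pools per genotype. In whole buds, fewer cells of a type and less RNA per cell cannot be told apart.

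CLAVATA3 (CLV3) is a small secreted peptide of the shoot and floral meristems. In Arabidopsis it signals through receptor kinases to limit the expression of WUSCHEL (WUS), a homeodomain protein that maintains the stem cells, and WUS in turn activates CLV3. The MADS-box protein AGAMOUS ends WUS expression once carpels form, which closes the floral meristem. Plants in which this loop is weakened form larger floral meristems and more carpels, seen in a tomato fruit as more locules.

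The values are counts of 3′ Tag RNA-seq, a method that reads only the 3′ end of each mRNA. RPM stands for counts per 1000000 counts of a library. Column totals exceed the numbers of gene-mapped reads that the study lists, so RPM and limits for counts of 0 are in units of the deposited counts, which may not be single reads. Totals, in units of 1000000 counts, ran from 4.27 to 9.17 in 10 of the 12 libraries. The exceptions were lc replicate 2, at 2.04, and fas replicate 3, at 0.441, in which 1 count equals 2.27 RPM and a count of 0 allows up to 6.80 RPM. Pearson r across genes on log2(RPM + 1) was 0.900 to 0.980 within a genotype (median 0.947) and had a median of 0.956 between genotypes. The first principal component (36.9% of the variance) put replicates 1 and 3 of WT and of lc/fas on one side and replicate 2 of WT, fas and lc/fas on the other, where fas replicate 3 lay farthest out. On the second component (30.5%) fas replicate 3 also stood far from the rest. The buds expressed 15 of 16 floral MADS-box genes above the filter on low counts, among them TAG1, the tomato AGAMOUS, and TM5, a SEPALLATA-type gene, in all 12 libraries.

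Of 18088 genes tested, 1 gene passed an adjusted p under 0.1 (0.00553%), and it was lower with the fas allele (0.00553% lower, 0% higher). No gene was called higher by this edgeR fit, whereas DESeq2 called 2 and the edgeR fit of all 60 libraries called 3. Without adjustment, 280 genes had a p under 0.05 (1.55%), 144 of them lower (0.796%) and 136 higher (0.752%). A calibrated test gives a fraction of 0.05 when no gene differs. The share here was smaller, so the test may not be calibrated at this stage. The count alone therefore does not decide whether genes differ. Shares over all genes below that fraction are read the same way in the comparisons that follow. The count of 280 became 167 without fas replicate 1, 180 without lc/fas replicate 2, 184 without WT replicate 3 and 608 without lc/fas replicate 3. It was 424 with a replicate block and 1139 with 2 surrogate variables, a setting added after seeing the data. With all 60 libraries fitted together it was 1323 of 18901 genes, but p-values of that fit can be too small at 6 dpi. In RPM, the 6 libraries with fas did not overlap the 6 without it for 27 genes (0.149%), lying below them for 21 (0.116%) and above them for 6 (0.0332%). Groups also separate by chance, so this count alone does not show an effect.

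The called gene was SlYABBY2b (Solyc11g071810), a YABBY transcription factor gene that lies at the far end of the fas inversion from SlCLV3. The study places a breakpoint of the inversion in the first intron of SlYABBY2b, so the allele cuts this gene. It reports that nearly all transcripts left in the fas lines map before the breakpoint, and takes them as truncated and likely without function. The level of SlYABBY2b was 59.5, 48.2 and 51.6 RPM in the 3 WT libraries and 53.0, 51.0 and 41.3 RPM in lc. In fas it was 5.42, 15.4 and 9.06 RPM, and in lc/fas 4.36, 7.03 and 7.09 RPM. The highest library with the allele, fas replicate 2, was still far below the lowest without it, lc replicate 3. The log2 fold change for the fas allele was -2.68 ± 0.23 (SE, 95% confidence interval -3.18 to -2.19, adjusted p = 0.000116), a 6.41-fold lower level. It was -2.35 from WT to fas and -2.99 from lc to lc/fas, comparisons that share no library, and the lc by fas interaction was -0.64 ± 0.43 (SE, adjusted p = 0.817). The call held without each library in turn (log2 fold change -3.01 to -2.53, adjusted p 3.83e-06 to 0.00117) and without fas replicate 3 and WT replicate 1 together (adjusted p = 0.00225), but not with the 3 fas and 3 WT libraries alone (-2.35, adjusted p = 0.517).

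Below SlYABBY2b in the order of p stood a pair of genes that just missed the threshold, each with an adjusted p of 0.108. Solyc01g081250, whose Arabidopsis homolog AT3G09270 is a glutathione S-transferase, had 6.69, 7.22 and 6.40 RPM for WT, 7.76, 5.89 and 8.29 for lc, 2.71, 2.69 and 4.53 for fas and 2.18, 1.41 and 0.747 for lc/fas. All 6 libraries with the allele were below all 6 others, and lc/fas replicate 3 was the lowest. Its log2 fold change was -1.77 ± 0.29 (SE). It passed with DESeq2 (adjusted p = 9.75e-05), without the filter on low counts (0.0258), without the lc covariate (0.0738), with the interaction in the model (0.0800) and when all 60 libraries shared an estimate of the spread (0.00181). It did not pass with a replicate block or in any edgeR fit that left out 1 library (0.124 to 0.583).

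Solyc11g071400, homologous to the Arabidopsis NB-ARC resistance gene AT3G14470 and situated in the fas introgression close to SlCLV3, had few reads. Its counts were 9, 16 and 20 for WT, 31, 8 and 18 for lc, 2, 3 and 0 for fas and 5, 0 and 5 for lc/fas, that is a median of 3.20 RPM without the allele and 0.495 RPM with it. The groups did not overlap in RPM, although the 0 of fas replicate 3 allows a level above all libraries. The log2 fold change was -2.67 ± 0.43 (SE), and it passed with DESeq2 (adjusted p = 0.000136) and in the other settings named as passed by Solyc01g081250 apart from the interaction model. It did not pass with a replicate block or in any edgeR fit that left out 1 library (0.110 to 0.583).

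**Figure D1:**
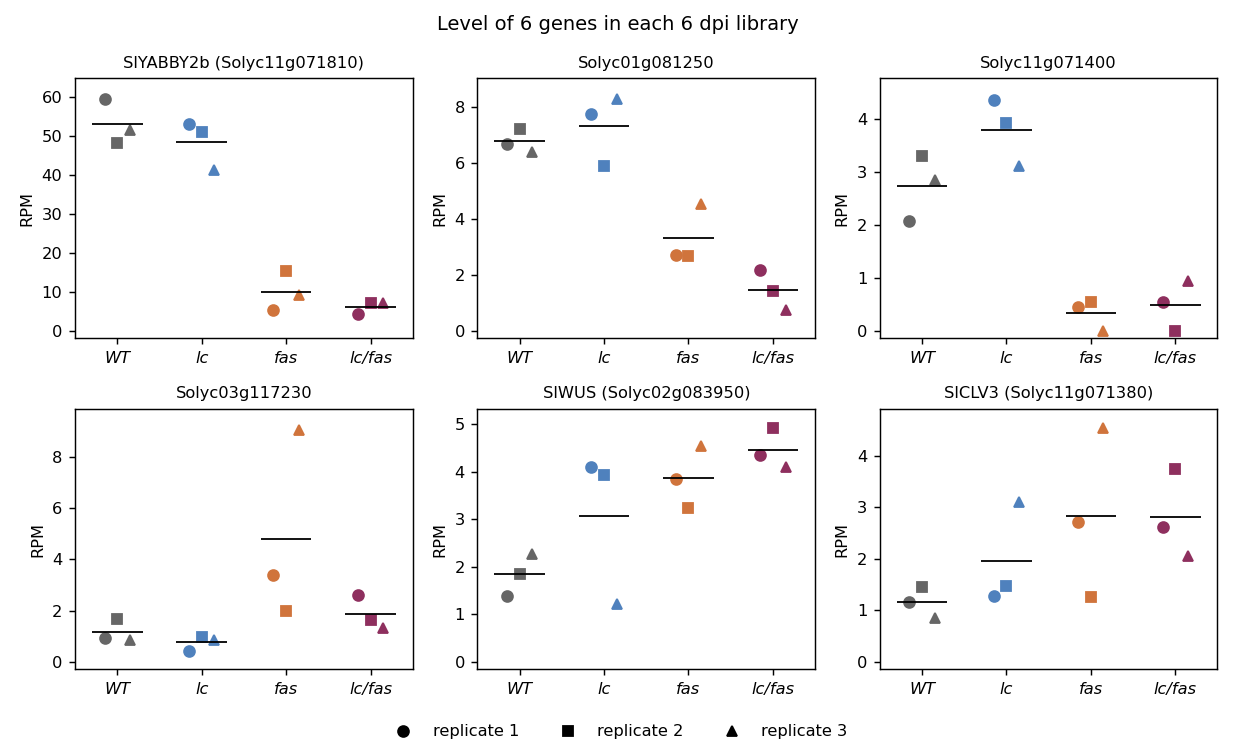
Each point is 1 library of 6 dpi, with its level in RPM on the y axis and the genotypes WT, lc, fas and lc/fas on the x axis; the marker gives the replicate number and the line the mean of 3. SlYABBY2b, Solyc01g081250 and Solyc11g071400 lie lower in all 6 libraries with the fas allele, whereas SlWUS, SlCLV3 and Solyc03g117230 have overlapping groups, with fas replicate 3 at 9.06 RPM for Solyc03g117230.

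Among the 10 members of the CLAVATA-WUSCHEL list, 9 were tested, 0 were called by edgeR or by DESeq2, and 3 were higher and 0 lower at an unadjusted p under 0.05, beside 0.752% and 0.796% of all genes. Their median log2 fold change was 0.05, beside -0.000715 for all genes tested. SlWUS (Solyc02g083950), which maintains the stem cells, had 1.38, 1.86 and 2.28 RPM for WT, 4.09, 3.92 and 1.21 for lc, 3.84, 3.23 and 4.53 for fas and 4.36, 4.92 and 4.11 for lc/fas. Fas and lc/fas libraries were all above those of WT but overlapped with lc, where replicates 1 and 2 were high and replicate 3 was low. In fas replicate 3 the value stands for 2 counts, so its place above WT is uncertain. The log2 fold change was 0.75 ± 0.31 (SE, 95% confidence interval 0.10 to 1.40, adjusted p = 1).

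SlCLV3 (Solyc11g071380), whose peptide limits the stem cells, did not have a lower mean with the fas allele at this stage. It had 1.15, 1.44 and 0.853 RPM for WT, 1.27, 1.47 and 3.11 for lc, 2.71, 1.25 and 4.53 for fas and 2.62, 3.75 and 2.05 for lc/fas. The 4.53 RPM of fas replicate 3 stands for 2 counts, and the groups overlapped. The log2 fold change was 0.67 ± 0.37 (SE, 95% confidence interval -0.11 to 1.46, adjusted p = 1). SlCLE9 (Solyc06g074060), which encodes a related CLE peptide, did not pass the filter on low counts. Its counts were 1, 0 and 2 for WT, 3, 0 and 1 for lc, 0, 3 and 0 for fas and 6, 8 and 5 for lc/fas. Only the lc/fas libraries had more than 3 counts each, and fas did not separate from WT or lc.

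Most other members of the list had values near 0. Solyc04g081590 had a log2 fold change of 0.27 ± 0.12 (SE, adjusted p = 1) and was at 56.1 to 65.2 RPM without the allele and 65.7 to 83.1 RPM with it. It was the only tested gene of the list whose groups did not overlap, beside 0.149% of all genes. The gap was less than 1 count of fas replicate 3, the lowest library with the allele. That library had 29 counts of this gene, and 1 count equals 2.27 RPM there. Log2 fold changes of the 5 tested list members not named here ran from -0.15 to 0.05. The remaining member, Solyc03g117230, is the homolog of AT1G80580, an AP2/ERF-type transcription factor gene of Arabidopsis. It had 0.923, 1.65 and 0.853 RPM for WT, 0.423, 0.981 and 0.864 for lc, 3.39, 1.97 and 9.06 for fas and 2.62, 1.64 and 1.31 for lc/fas. Libraries with the allele were higher except for lc/fas replicates 2 and 3, which were under WT replicate 2, and the value of fas replicate 3 stands for 4 counts. The log2 fold change was 1.52 ± 0.42 (SE, adjusted p = 1) and was 1.58 from WT to fas and 1.44 from lc to lc/fas. It was 1.34 without fas replicate 3, and it passed when all 60 libraries were fitted together (1.47, adjusted p = 0.0417).

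SlYABBY2b belongs to a family that in Arabidopsis marks the abaxial side of lateral organs and, in CRABS CLAW, acts in carpels and nectaries. Of the 9 YABBY genes listed, 8 were tested and SlYABBY2b alone was called, and the median log2 fold change was -0.12. At an unadjusted p under 0.05 the family had 1 lower gene, SlYABBY2b itself, and 1 higher gene, Solyc05g012050, a CRABS CLAW homolog, beside 0.796% and 0.752% of all genes. Solyc05g012050 had 10.4, 29.1 and 19.2 RPM for WT, 39.9, 34.8 and 15.03 for lc, 43.6, 50.2 and 18.1 for fas and 36.6, 68.7 and 26.7 for lc/fas, so the groups overlapped widely, with a log2 fold change of 0.80 ± 0.32 (SE, adjusted p = 1). The other CRABS CLAW homolog, Solyc01g010240, had 0.31 ± 0.22 (SE, adjusted p = 1). For the homologs of FILAMENTOUS FLOWER (Solyc01g091010), YABBY3 (Solyc08g079100) and YABBY5 (Solyc07g008180), which act in leaf and floral organ polarity, the values were -0.19, -0.31 and -0.07.

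None of the 15 floral MADS-box genes tested was called by edgeR or DESeq2, and their median log2 fold change was 0.05, with 1 lower and 0 higher at an unadjusted p under 0.05 (0.796% and 0.752% of all genes). TAG1 (Solyc02g071730), which specifies stamens and carpels and ends the floral meristem, had 116, 179 and 125 RPM for WT, 215, 179 and 154 for lc, 233, 267 and 156 for fas and 176, 255 and 156 for lc/fas. The groups overlapped and the log2 fold change was 0.39 ± 0.19 (SE, adjusted p = 1). TM5 (Solyc05g015750) had 0.31 ± 0.15 (SE, adjusted p = 1). The gene with the smallest p was Solyc03g114830, homologous to the Arabidopsis fruit patterning gene FRUITFULL, at -0.48 ± 0.19 (SE, adjusted p = 1). Its level was lowest in fas replicate 1, at 19.9 RPM, and ran from 38.9 to 65.0 RPM in the other libraries.

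The fas introgression, taken as the 47 gene models from Solyc11g071370 to Solyc11g071830, held the called gene. Of its 34 tested genes, 6 were lower and 2 higher at an unadjusted p under 0.05, beside 0.796% and 0.752% of all genes, and 3 had groups that did not overlap (SlYABBY2b, Solyc11g071400 and Solyc11g071750), beside 0.149%. In the 25 gene models on each side, 34 were tested and 0 had an unadjusted p under 0.05 or a call with edgeR or DESeq2. The medians were close, 0.02 in the introgression and 0.01 in its flanks, but the log2 fold changes ran from -2.68 to 2.01 in the former and from -0.99 to 0.88 in the latter.

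Several of these genes followed each other in table order near SlYABBY2b. Solyc11g071740, homologous to the calmodulin-like gene CML38 of Arabidopsis, had 17.3, 18.6 and 12.2 RPM for WT, 16.1, 17.7 and 15.6 for lc, 68.2, 29.2 and 2.27 for fas and 61.2, 29.8 and 20.2 for lc/fas. Every library with the allele was above all others except fas replicate 3, where a single count was found, and the log2 fold change was 1.25 ± 0.38 (SE, adjusted p = 1). This gene passed in the edgeR fit of all 60 libraries (adjusted p = 0.0417). Its neighbour Solyc11g071750, which the sources used here do not annotate, had 0.141 to 1.14 RPM without the allele and 1.41 to 5.12 RPM with it, without overlap (2.01 ± 0.50, SE, adjusted p = 1). In fas replicate 3 its level stands for 1 count, and a count of 0 there would end the separation. Lower values came from Solyc11g071790 (-0.58 ± 0.20, SE), homologous to SDH6 of the mitochondrial succinate dehydrogenase, Solyc11g071820 (-0.59 ± 0.25, SE) and Solyc11g071830 (-0.87 ± 0.33, SE), homologous to the DnaJ chaperone J3, each with an adjusted p of 1. Solyc11g071830 ran from 38.7 to 92.3 RPM without the allele and from 15.9 to 55.0 RPM with it, overlapping through fas replicate 2 and lc/fas replicate 2.

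**Figure D2:**
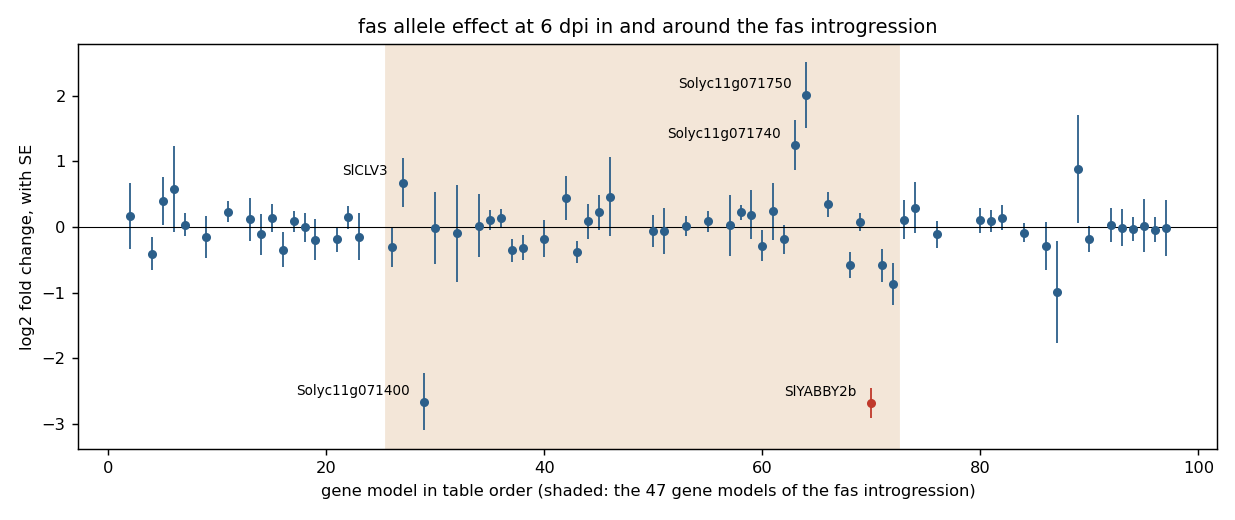
Log2 fold change for the fas allele at 6 dpi (y axis, with SE) of the tested genes in table order (x axis), with the 47 gene models of the introgression shaded and 25 on each side. SlYABBY2b, in red, is the called gene at -2.68, Solyc11g071400 reaches -2.67 and Solyc11g071750 2.01, and most other genes lie near 0.

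Elsewhere in the genome, the next genes in the order of p had an adjusted p of 1. Solyc09g082340, not annotated in the sources used here, had 0 to 1.41 RPM without the allele and 1.31 to 9.14 RPM with it (log2 fold change 2.59 ± 0.57, SE), and DESeq2 called it (adjusted p = 0.0797). Solyc05g009770, the homolog of the zinc finger gene DOT5 that acts in Arabidopsis leaf venation, had 4.38, 3.30 and 2.99 RPM for WT, 5.08, 3.92 and 4.15 for lc, 11.7, 9.32 and 0 for fas and 10.03, 11.96 and 5.79 for lc/fas. It was higher in 5 of 6 libraries with the allele, and the 0 of fas replicate 3 does not limit the level to below that of WT. The log2 fold change was 1.20 ± 0.31 (SE), called by DESeq2 (adjusted p = 0.0997) and in the fit of all 60 libraries (0.0259).

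A pair of genes of higher expression showed small differences without overlap. Solyc05g053400, homologous to the glycosyltransferase UGT72E1 of Arabidopsis, was at 34.9 to 50.3 RPM without the allele and 22.5 to 33.8 RPM with it (log2 fold change -0.58 ± 0.15, SE). Solyc06g075550, homologous to the protein kinase AT1G07870, was at 11.8 to 18.1 and 19.0 to 26.4 RPM (0.53 ± 0.14, SE). The MYB15 homolog Solyc03g093890 (-1.55 ± 0.40, SE), the terpene synthase homolog Solyc12g006570 (-0.65 ± 0.18, SE) and Solyc09g090390 (-1.28 ± 0.33, SE), which is not annotated in the sources used here, had groups that overlapped.

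The fas effect was also taken within each lc state. From WT to fas 1 gene was called (0.00553%) and 971 had an unadjusted p under 0.05 (5.37%), and from lc to lc/fas 1 gene was called (0.00553%) and 153 had such a p (0.846%). The called gene was SlYABBY2b in both, with an adjusted p of 0.0563 and 0.00212. From WT to fas it no longer passed without WT replicate 1 (-2.27, adjusted p = 0.182), WT replicate 3 (-2.36, 0.232), fas replicate 1 (-1.95, 0.332), fas replicate 3 (-2.33, 0.472) or lc replicate 1, 2 or 3 (-2.36 to -2.35, 0.142 to 0.184), while from lc to lc/fas it passed without each library in turn (adjusted p 0.000306 to 0.0324). The 971 became 4219 without WT replicate 2, 446 without WT replicate 1 and 393 without WT replicate 3, and the 153 became 849 without lc/fas replicate 2 and 70 without lc/fas replicate 1. Same-numbered libraries of WT and fas deviated together, and with the replicate number as a block 1715 genes (9.48%) had such a p from WT to fas and SlYABBY2b alone was called (-2.40, adjusted p = 0.0153). Across the 18088 genes the log2 fold changes of the comparisons had a Pearson r of -0.21 and a Spearman rho of -0.29, and -0.31 and -0.36 across the 14630 genes that averaged 5 RPM or more. These are descriptions across genes, which are not independent replicates, and all log2 fold changes of a comparison rest on the same 6 libraries. The p-values within each lc state take their spread from all 12 libraries. For the interaction edgeR called 0 genes (0%), and 569 had an unadjusted p under 0.05 (3.15%). That count became 3480 without WT replicate 2, 2844 without lc/fas replicate 2 and 1744 with a replicate block. It fell to between 241 (without lc/fas replicate 1) and 364 (without lc replicate 1) when any of WT replicates 1 and 3, lc replicates 1 and 2 and lc/fas replicates 1 and 3 was left out, and 0 genes were called each time.

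**Figure D3:**
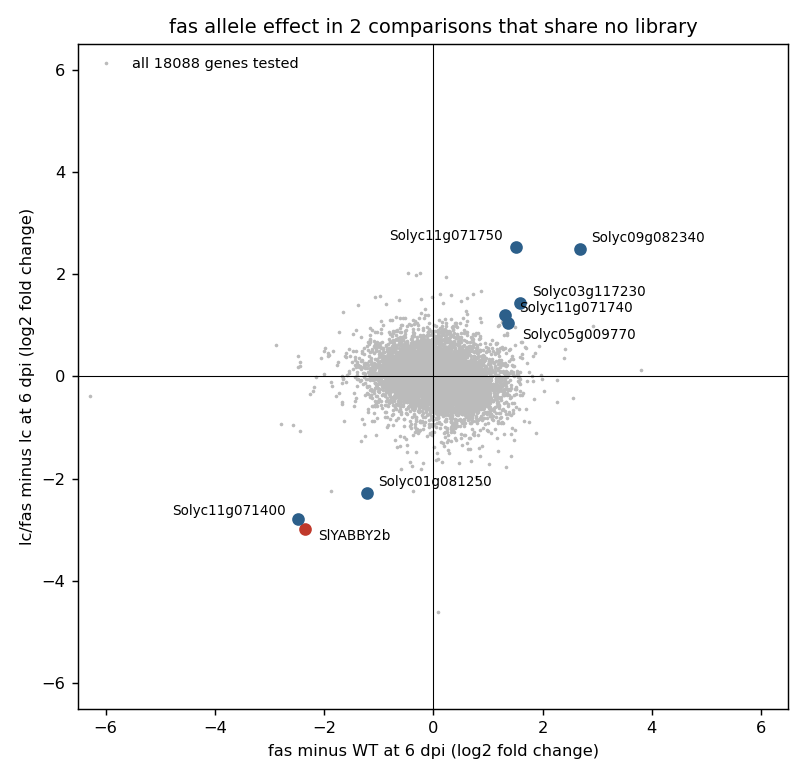
Log2 fold change from WT to fas (x axis) against that from lc to lc/fas (y axis) at 6 dpi; grey points are the 18088 genes tested and coloured points the named ones, with the called SlYABBY2b in red. SlYABBY2b lies at -2.35 and -2.99, whereas the cloud of all genes tilts the other way (Pearson r -0.21).

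Sterols are membrane lipids and the precursors of the brassinosteroid hormones. The study picked a group of sterol genes as lower in the fas lines on these libraries, and most of the 21 homologs examined here were matched through its gene lists, so their direction is not independent evidence. The 21 homologs summed to 4149 to 4651 RPM (median 4581) with the fas allele and to 4854 to 5828 RPM (median 5120) without it. Sterol biosynthesis was the only 1 of the 14 lists whose summed level did not overlap between the groups. All 21 were tested, 0 were called by edgeR or DESeq2, 5 were lower and 0 higher at an unadjusted p under 0.05, beside 0.796% and 0.752% of all genes, and the median log2 fold change was -0.20, with 16 values below 0 and 5 above. The median was -0.41 from WT to fas and -0.08 from lc to lc/fas.

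The MVD homolog Solyc11g007020, for the last step of the mevalonate pathway, had 30.0, 37.3 and 35.0 RPM for WT, 30.5, 32.4 and 28.3 for lc, 19.9, 20.97 and 20.4 for fas and 26.7, 27.7 and 24.3 for lc/fas. It was the 1 homolog of 21 without overlap, beside 0.149% of all genes, and the fas libraries were lower than those of lc/fas (log2 fold change -0.45 ± 0.14, SE, adjusted p = 1). The homolog of CAS1 (Solyc04g070980), the enzyme that forms cycloartenol, had -0.38 ± 0.15 (SE). Homologs of the late enzymes DWARF5 (Solyc06g074090) and DWARF1 (Solyc02g069490), both reductases on the way to brassinosteroids, had -0.40 ± 0.14 and -0.38 ± 0.14 (SE). A further DWARF1 homolog, Solyc02g030170, had 0.20 ± 0.16 (SE, adjusted p = 1).

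**Figure D4:**
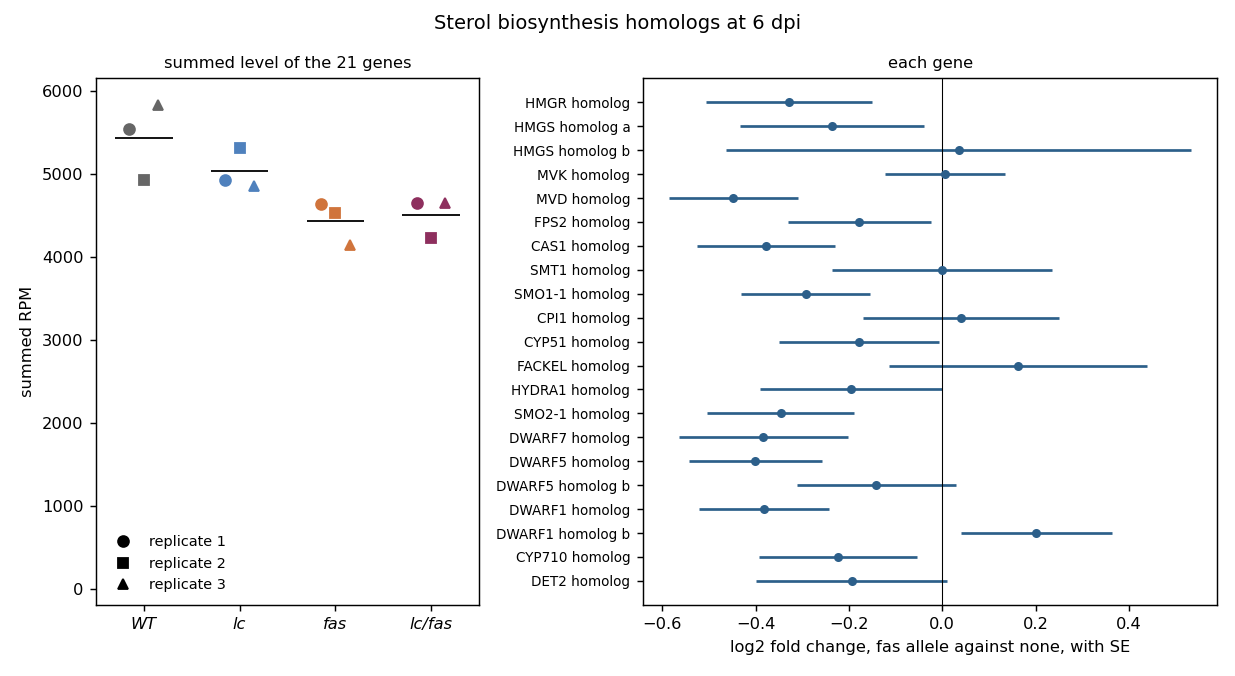
Left, summed level in RPM (y axis) of the 21 sterol biosynthesis homologs in each library, by genotype and replicate, with the mean as a line. Right, log2 fold change for the fas allele with SE (x axis) of each homolog; the summed level is 4149 to 4651 RPM with the allele and 4854 to 5828 RPM without it, and 16 of 21 values lie below 0.

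The other stages of the series, the sympodial meristem (SYM), the floral and inflorescence meristems (F&IM) and buds of 2 and 4 dpi, gave more calls. When each stage was fitted alone in the same way, SYM libraries gave 9 called genes and F&IM libraries 20, while buds of 2, 4 and 6 dpi gave 19, 3 and 1. The spread between replicates was largest at 6 dpi, with a common dispersion of 0.0698, against 0.0152 to 0.0278 at the other stages. By stage it was 0.0278 for the SYM, 0.0178 for the F&IM, 0.0152 for buds of 2 dpi and 0.0172 for buds of 4 dpi. The part of the spread in the count of called genes was not tested. The calls at the earlier stages involved 39 genes, of which 37 were tested at 6 dpi and 33 had the same direction there. All 8 with an unadjusted p under 0.05 at 6 dpi had the same direction, among them Solyc01g081250, DWARF1 and Solyc11g071830. As a background, 57.9% to 60.9% of all genes shared the sign of the fas effect between 6 dpi and a given earlier stage. The exceptions were SlCLV3 (log2 fold change at 6 dpi 0.67), Solyc06g059740 (0.47), Solyc11g071640 (0.01) and Solyc10g078990 (-0.16).

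In a model of the 20 groups, in which all 60 libraries share an estimate of the spread, the fas effect on SlYABBY2b was -2.11 for the SYM and -0.71 for the F&IM on the log2 scale, and in buds it was -2.36, -2.97 and -2.67 from 2 to 6 dpi. Solyc01g081250 was lower at each stage, with -1.46, -1.90, -2.14, -2.16 and -1.75 in the same order. SlCLV3 had -1.11 (adjusted p = 4.86e-08) and -0.74 (adjusted p = 0.00153) in the meristems, then 0.05, -0.23 and 0.66 in the buds. Its effect at 6 dpi was 1.17 ± 0.28 (SE) above the mean of the other 4 stages, which did not pass (adjusted p = 0.608). SlCLE9 was higher by 2.18, 2.41, 2.93 and 2.57 from the SYM to 4 dpi, and at 6 dpi its value was 1.22 ± 0.65 (SE, adjusted p = 0.736). The difference from 4 dpi was -1.34 ± 0.80 (SE, adjusted p = 1), at 0 to 8 counts per library.

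Between 6 and 4 dpi the fas effect differed for 1 gene of 18901 tested (0.00529%), with 499 at an unadjusted p under 0.05 (2.64%). The 499 became 1275 without WT replicate 2, 844 without lc/fas replicate 3 and 794 without fas replicate 2. The gene was Solyc03g117230, whose log2 fold change was 0.65 for the SYM, 0.06 for the F&IM, 0.19 and -0.47 for buds of 2 and 4 dpi, and 1.47 at 6 dpi. The difference of 1.94 ± 0.33 (SE, adjusted p = 0.00758) rests on 2 to 24 counts per library at 6 dpi. Its SE uses a spread shared by all stages, although replicates varied most at 6 dpi, so it can be too small. The SE of the 6 dpi effect was 0.30 in this model and 0.42 with the 6 dpi libraries alone. The difference no longer passed without lc replicate 1 (1.73, adjusted p = 0.193), fas replicate 1 (1.83, 0.173) or lc/fas replicate 1 (1.72, 0.405). Against the mean of the other 4 stages, edgeR called 0 genes (0%) and 727 had an unadjusted p under 0.05 (3.85%), and 4 were called without fas replicate 2, SlCLV3 and Solyc03g117230 among them. The 727 became 1797 without WT replicate 2, 1166 without lc/fas replicate 3 and 1141 without fas replicate 2.

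**Figure D5:**
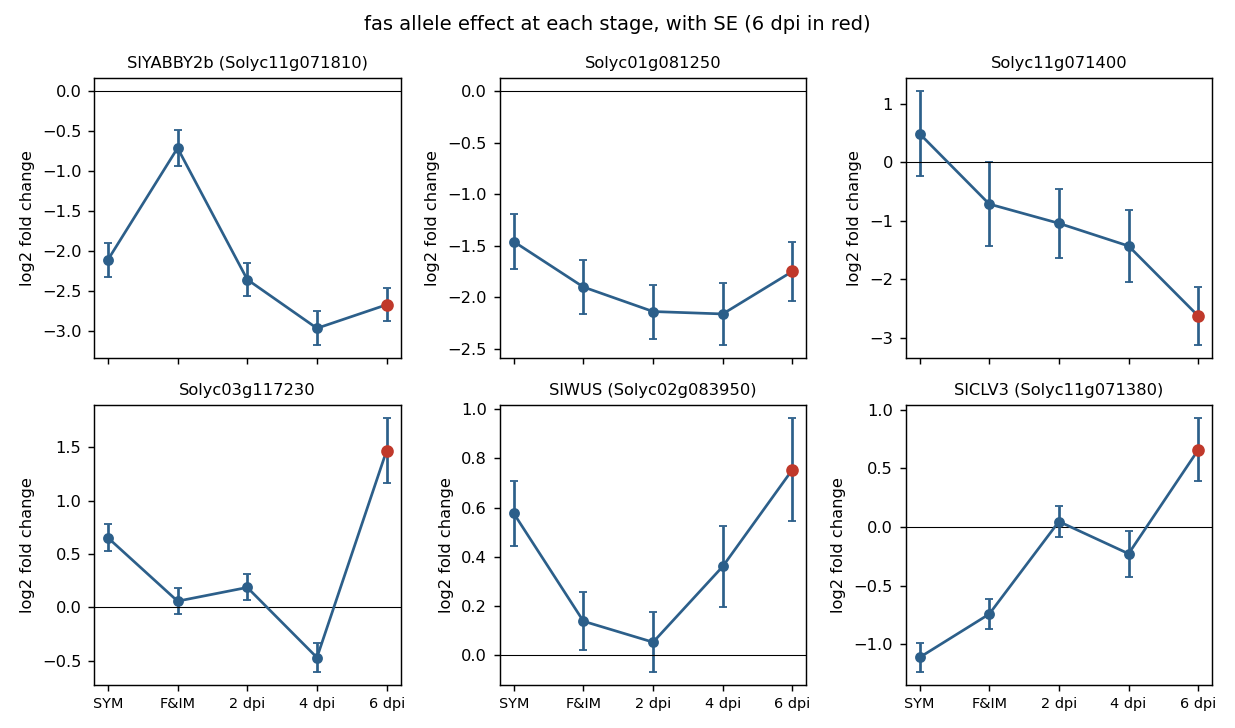
Log2 fold change for the fas allele with SE (y axis) at the 5 stages (x axis) in the model of 20 groups, with 6 dpi in red. SlYABBY2b is nearest 0 in the F&IM (-0.71), SlCLV3 goes from -1.11 in the SYM to 0.66 at 6 dpi, and Solyc03g117230 stands at -0.47 at 4 dpi and 1.47 at 6 dpi.

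Markers of other tissues and of handling were compared between the same groups, and none of their genes was called by edgeR or DESeq2. Photosynthesis genes of green tissue summed to 7065 to 14152 RPM with the allele and 7546 to 11101 RPM without it, and 14 of 16 tested were above 0 on the log2 scale (median 0.22). Heat shock genes summed to 536 to 1175 and 580 to 1300 RPM. Homologs of organelle genes, at 191 to 436 RPM with the allele, were at 867 RPM in WT replicate 1 and at 156 to 251 RPM in the other 5 libraries without it, and all 10 tested were below 0 (median -0.36, -1.03 from WT to fas and 0.15 from lc to lc/fas). Glandular trichome markers summed to 102 to 120 and 106 to 134 RPM, and 4 of 6 were tested. Most of that sum came from Solyc02g080260 (log2 fold change -0.08 ± 0.12, SE) and Solyc06g059930 (-0.09 ± 0.13, SE), while the low markers had -0.99 ± 0.32 for Solyc11g067270 (SE, unadjusted p = 0.00793) and 0.53 ± 0.26 for Solyc06g060010 (SE), all with an adjusted p of 1. Anther and ovule markers, at 2.87 to 4.58 and 1.47 to 3.13 RPM, had 1 of 6 tested. Their part in the differences above was not tested.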

How the data were processed

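The authors trimmed reads with fqtrim, aligned them with Rsubread and used the ITAG2.4 annotation. They deposited whole counts per gene for 34725 genes, and their counting settings were not given in the sources used here. Column totals are larger than the gene-mapped reads the study lists for the libraries compared, for an unknown reason, so the unit is that of the deposited table. DESeq2 is named in the submitters' processing notes. A line without a gene name, at most 3.10% of a library, was left out.

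The 12 libraries of 6 dpi (4 genotypes, 3 each) were fitted with edgeR 4.0.16 in R 4.3.3. The filterByExpr step kept 18088 genes, scaling was by TMM, and the quasi-likelihood test used lc and fas as terms, with Benjamini-Hochberg adjustment over all genes tested and the study's threshold of 0.1. A fit of the 4 genotypes gave fas against WT, lc/fas against lc and the interaction, and a fit of 20 groups over all 60 libraries (18901 genes) gave the differences between stages. The fit of 60 libraries shares its spread across stages, so its p-values can be too small at 6 dpi, where the spread was largest. RPM used library totals. Depth limits the precision, and totals were 0.441 to 9.17, in units of 1000000 counts. Limits for counts of 0 (3 counts) cover counting error only. The procedure was tested on simulated data. Simulated libraries were drawn independently, so the test does not cover the shared deviations of same-numbered libraries.

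The members and lists were chosen with earlier results of these data known. Genes named are the CLAVATA-WUSCHEL and YABBY lists and TAG1, called genes or else the 10 with the smallest p besides, up to 4 per other list, and genes of the introgression; Solyc11g071740, Solyc11g071790, Solyc11g071820, Solyc11g071830 and genes called only at other stages or in other settings were named after their values were seen. The 14 lists hold 186 members, and gene roles come from the study's annotation of each identifier or its Arabidopsis homolog. No 2 libraries agreed within sampling noise if each count is taken as a single read. What a count stands for is not known, so the comparison cannot decide whether any 2 agreed. The residuals of same-numbered libraries correlated over 0.1 in 3 of 3 pairs of fas with WT (0.17 to 0.39) and of lc/fas with WT (0.57 to 0.83), but in 1 of 3 of fas with lc and of lc/fas with lc. The main fits, that of fas against WT included, took no account of the numbers. Fits with the number as a block are given as alternatives, although no label ties a number to a shared day or batch. No genome matching these identifiers was used. Alternatives were DESeq2 1.42.0, other scalings, filters and models, a replicate block and leaving out each library; sva 3.50.0 with 2 surrogate variables, voom of limma 3.58.1 with sample weights, leaving out fas replicate 3 with WT replicate 1 and, within each lc state, a replicate block and leaving out each library were added after seeing the data.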

Additional observations from a re-analysis of the deposited data

Results flagged for a closer look

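Among 90 groups of 6 libraries examined (levels of the named genes and summed levels of the lists), 8 held a library far from the other 5 by Dixon's test at 95% (8.89%). Chance flags about 1 in 20. SlCLV3 reached 3.11 RPM in lc replicate 3, against 0.853 to 1.47 RPM in the other libraries without fas. Solyc03g117230 reached 9.06 RPM (4 counts) in fas replicate 3, against 1.31 to 3.39 RPM in the other libraries with fas. Solyc11g071750 reached 5.12 RPM in lc/fas replicate 1, against 1.41 to 2.71 RPM, and Solyc12g006570 reached 34.8 RPM in fas replicate 2, against 22.4 to 26.7 RPM. Solyc05g005240, a YABBY gene too low to be tested, had 0.179 RPM (1 count) in fas replicate 2 and 0 in the other libraries with fas.

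The summed level of the YABBY list was 1257 RPM in WT replicate 1, against 1499 to 1644 RPM in the other libraries without fas. For the organelle gene homologs it was 867 RPM in WT replicate 1, against 156 to 251 RPM, and among the libraries with fas 436 RPM in lc/fas replicate 1, against 191 to 273 RPM. The fas effect on Solyc03g117230 differed between 6 and 4 dpi by 1.94 on the log2 scale in the test of the difference itself (edgeR, adjusted p = 0.00758).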

How the results depend on the processing

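SlYABBY2b was called in each setting except fas against WT alone, where 0 genes were called (592 at an unadjusted p under 0.05) and its log2 fold change was -2.35 (adjusted p = 0.517). The count of called genes was 5 with DESeq2 (2 higher, 3 lower), 3 without the filter or without the lc covariate, 2 with the interaction in the model, 6 with all 60 libraries (3 higher, 3 lower) and, added after seeing the data, 4 with 2 surrogate variables. It was 1 without each library in turn and with the other settings. Without each library the count was 0 to 1 for fas against WT, 1 for lc/fas against lc, 0 to 1 for 6 against 4 dpi, 0 to 4 for 6 dpi against the other stages and 0 for the interaction. Same-numbered libraries of different genotypes had residual correlations of -0.19 to 0.83, over 0.1 in 8 of 12 pairs (mean 0.29), and those with different numbers exceeded it in 5 of 24 (mean -0.14). Residuals were taken from the mean of the 3 libraries of a genotype. The lower mean for different numbers thus follows from the higher one for same numbers and is no separate result. Every same-numbered pair of WT and fas was over 0.1, but not every such pair across all 4 genotypes. With a replicate block the count was 1 (424 at an unadjusted p under 0.05) for the fas effect, 1 for fas against WT, 2 (565) for lc/fas against lc, which added Solyc01g081250, 1 for 6 against 4 dpi and 0 for the others. With the fas and WT libraries alone the block gave 0 called genes and 1467 at such a p.

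Results with an adjusted p of 1 changed sign as follows, and the cause was not tested. With fas against WT alone, log2 fold changes were -0.44 for Solyc04g056640, 0.27 for Solyc11g064850, 0.00692 for Solyc04g080080, 0.26 for Solyc07g008180, 0.15 for Solyc12g005250, 0.24 for Solyc03g032190, 0.0782 for Solyc07g065210 and 0.0733 for Solyc02g067100. With lc/fas against lc alone they were 0.14 for Solyc02g091840, -0.0728 for Solyc01g080770, 0.11 for Solyc06g073920, 0.0153 for Solyc12g009580, 0.0116 for Solyc10g078700, -0.0104 for Solyc10g005030, 0.0254 for Solyc06g059930, 0.0464 for Solyc00g013180 and 0.10 for Solyc01g007460. Solyc01g080770 and Solyc06g073920 had -0.00430 and 0.0817 with surrogate variables, -0.00970 and 0.0382 with voom weights, and -0.0342 and 0.0896 without fas replicate 3 and WT replicate 1, where Solyc01g007460 had 0.10. Without each library, or without that pair, the ranges were -0.0663 to 0.207 for Solyc04g056640, -0.0342 to 0.110 for Solyc01g080770, -0.340 to 0.0628 for Solyc11g064850, -0.170 to 0.0937 for Solyc06g073920, -0.376 to 0.0498 for Solyc07g008180 and -0.812 to 0.0982 for Solyc01g007460. By depth, a count of 0 in fas replicate 3 does not distinguish levels under 6.80 RPM.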

Other observations

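Phenylpropanoids are the precursors of lignin and flavonoids. Of 14 tested genes of this list 0 were called by edgeR or DESeq2, and 1 was higher and 3 were lower at an unadjusted p under 0.05, beside 0.752% and 0.796% of all genes (median log2 fold change -0.12). The homolog of ferulate 5-hydroxylase, a lignin enzyme (Solyc02g084570), was at 5.54 to 8.11 RPM in WT, 9.32 to 10.2 RPM in lc and 8.94 to 14.2 RPM in the 6 libraries with fas, with a log2 fold change of 0.53 ± 0.19 (SE, adjusted p = 1). All fas and lc/fas libraries were above WT and overlapped with lc. Lower values came from the homologs of the cinnamyl alcohol dehydrogenase CAD9 (Solyc11g010960, -0.46 ± 0.18, SE) and of chalcone synthase, the entry enzyme of flavonoids (Solyc09g091510, -0.42 ± 0.20, SE).

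Among 18 tested genes of jasmonate and wounding, 2 were higher and 0 lower at an unadjusted p under 0.05 (0.752% and 0.796% of all genes), and 0 were called by edgeR or DESeq2 (median 0.09). Both are homologs of the Arabidopsis jasmonate repressor gene JAZ8. Solyc08g036640 had a log2 fold change of 0.94 ± 0.34 (SE) and Solyc08g036660 of 0.53 ± 0.20 (SE), each with an adjusted p of 1. The values from WT to fas were 1.71 and 0.76, and those from lc to lc/fas 0.26 and 0.32.

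For mitosis and cytokinesis, 0 of 20 tested genes were called by edgeR or DESeq2 and 0 had an unadjusted p under 0.05. The median was -0.08, but it was 0.22 from WT to fas and -0.31 from lc to lc/fas. Summed levels ran from 899 RPM in WT replicate 1 to 1857 RPM in lc replicate 1, and all libraries with fas lay between these. Meristem and organ growth regulators (13 tested) and circadian clock genes (11 tested) had 0 genes called by edgeR or DESeq2 and 0 with an unadjusted p under 0.05, with medians of 0.06 and 0.13.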
